A study of Mus musculus with 12 samples.

Results

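The stromal matrix of the olfactory mucosa was followed through 54 genes, chosen by name as fibrillar, basement membrane and other stromal collagens, matrix glycoproteins and proteoglycans, and the enzymes and inhibitors that process them. Of these, 52 had at least 1 probe set naming that gene alone, 123 of the 45037 non-control probe sets on the array. Fbn1 and Loxl2 were not analysed here. Tnxb, which encodes tenascin-X, had signals of 3.3 to 40.8 on the 12 arrays and did not pass the filter on low signals, so 51 members were among the 13628 genes tested. The platform measured microdissected olfactory epithelium of wild-type male C57BL/6J mice aged 6 weeks. Mice in the Lip-C OBX group received liposomes loaded with clodronate, a drug that kills phagocytes which take it up, and had both olfactory bulbs removed (olfactory bulbectomy, OBX). Mice in the Lip-O OBX group received empty liposomes and the same operation. The Lip-C sham and Lip-O sham groups received loaded or empty liposomes with a sham operation. All mice were given liposomes by 2 routes, 50 µl intranasally on each of 3 days and 200 µl intravenously on 2 of them, and tissue was taken 48 h after surgery. Each group had 3 arrays, titled as biological replicates. The sources used here do not say whether RNA of several mice was combined on an array. A p-value sets a difference between group means against the scatter of these arrays within groups, and reaches no further than these arrays. The design asks how removing macrophages and cutting the olfactory nerve, alone and together, bear on gene expression in this tissue.

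Fibrillar collagens are secreted as procollagens by fibroblasts and bone-forming cells, trimmed at their ends, assembled into fibrils and cross-linked by lysyl oxidases. Network collagens, laminins and nidogens form the basement membranes under epithelia, around vessels and around nerve bundles, while matricellular proteins such as tenascin-C and the thrombospondins adjust how cells attach to the matrix. In the nose, the olfactory epithelium rests on a basement membrane above a lamina propria with fibroblasts, vessels, glands, olfactory nerve bundles and, below it, the bone and cartilage of the turbinates and septum. Bulbectomy cuts the axons of olfactory sensory neurons, which then die, and macrophages enter to clear them.

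The tissue label was checked first. Of 11 olfactory epithelium markers tested, Omp of mature sensory neurons had signals of 6769 to 18213, and the sustentacular cell gene Cyp2g1 had 14210.4 to 17527. Stromal markers were present too: the 14 fibroblast and mesenchymal markers tested summed to 12296 to 20193, and the bone matrix gene Ibsp had 1026 to 4659.5, so the dissected tissue held transcripts of stroma and bone beside those of epithelium. In bulk tissue of this kind, fewer cells of a type and less RNA per cell cannot be told apart. The deposited values were probe set signals on a linear scale with the same trimmed mean of 500 on every array, and array medians ran from 117.5 to 134.2. Differences are given on the log2(signal + 16) scale, with standard errors from the model, and understate the change of dim genes. A gene was called changed at a Benjamini-Hochberg adjusted p under 0.05 over all 13628 genes tested.

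More members were called for bulbectomy in Lip-C mice than in any of the other 3 pairwise comparisons. There, 28 of 51 members (54.9%) rose and 0 fell, where 19.1% of all genes tested changed and 10.3% rose. The members' median difference was 0.70, against 0.0428 for all genes. Members called higher included all 5 fibrillar collagens, 5 of 6 adhesive and matricellular glycoproteins and 2 of 3 collagen VI chains. In Lip-O mice, bulbectomy changed 10 of 51 members (19.6%), the same share as the 19.6% of all genes that changed: 8 rose (10.7% of all genes) and 2 fell (8.83% of all genes). The members' median there was 0.0898, against 0.0486 for all genes, and 14 members (27.5%) had an unadjusted p under 0.05, against 33.9% of all genes. The main fit left out any pairing of the Lip-O arrays by replicate number. With that number as a block, 11 members were called in Lip-O mice (21.6%, against 21.8% of all genes).

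In OBX mice, limma called 0 members for Lip-C, where 0.345% of all genes changed. A positive difference was seen for 46 of 51 members (90.2%, against 51.3% of all genes). The median was 0.34 against 0.00497 for all genes, and 13 members had an unadjusted p under 0.05 (25.5%, against 12.7% of all genes). In sham mice, Lip-C left 2 of 51 members lower and 0 higher, where 2.08% of all genes changed, 1.26% higher and 0.814% lower. The members called were Has2, the main hyaluronan synthase of mesenchymal cells, and Timp1, an inhibitor of metalloproteinases. The members' median was -0.25, against 0.00323 for all genes, and 25 members had an unadjusted p under 0.05 (49.0%, against 21.9% of all genes). Both Lip-C comparisons use arrays that the bulbectomy comparisons also use.

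**Figure D1:**
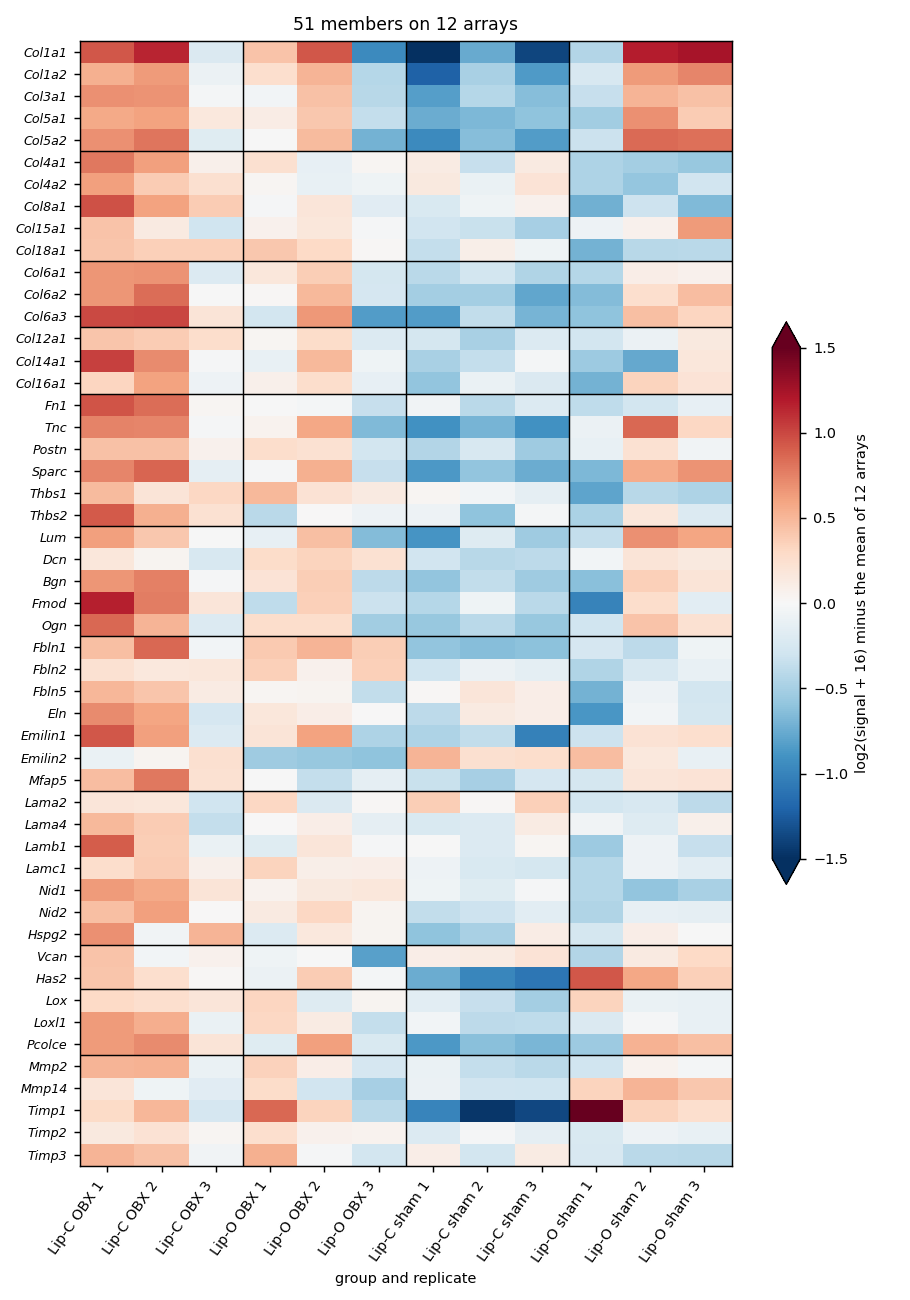
Heat map of 51 members (rows, grouped by role with black lines between roles) on 12 arrays (columns, by group and replicate). Colour gives log2(signal + 16) minus the gene's mean over the 12 arrays, clipped at the ends of the scale. The fibrillar collagens in the top rows are blue on the 3 Lip-C sham arrays, and most rows are palest or blue on replicate 3 within each OBX group.

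The fibrillar collagens showed one shared pattern. All 5 were called higher after bulbectomy in Lip-C mice, with differences of 1.08 to 2.03, and all 5 had negative differences after bulbectomy in Lip-O mice, from -0.53 to -0.13, none of them called. Those negative differences were not firm: over the other settings and fits, that of Col1a2 ran up to -0.000214 and that of Col3a1 up to -0.00424. Col1a1, whose chain makes up the larger share of type I collagen, had signals of 10888, 12592 and 4909 on Lip-C OBX arrays, 7649, 10923 and 2942 on Lip-O OBX arrays, 1308, 3379 and 2182 on Lip-C sham arrays, and 4190.1, 12874 and 13406 on Lip-O sham arrays. The 3 Lip-C sham arrays included the 2 lowest signals of all 12, and 1 array of each other group lay far below its partners. The bulbectomy difference of Col1a1 in Lip-C mice was 2.03 ± 0.60 (adjusted p = 0.0403), a 4.09-fold rise, and the groups did not overlap. The call was lost without Lip-C OBX replicates 1 or 2, any of the Lip-C sham arrays or Lip-O OBX replicate 1, with an adjusted p of at most 0.13. In Lip-O mice, where the groups overlapped, the difference was -0.52 ± 0.60 (adjusted p = 0.588); without Lip-O OBX replicate 3 it was 0.0257.

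Col1a2, the partner chain of type I collagen, had signals of 16106, 17407 and 10513 on Lip-C OBX arrays, 13282, 15846 and 8290.1 on Lip-O OBX arrays, 4806, 7932 and 6182 on Lip-C sham arrays, and 9477, 17381 and 18543 on Lip-O sham arrays. The Lip-C sham arrays lay below every other array of this gene. Its difference for OBX in Lip-C mice was 1.21 ± 0.32 (adjusted p = 0.0283), and for Lip-C in sham mice -1.23 ± 0.32 (adjusted p = 0.0689), with no overlap in either comparison. Leaving out Lip-C OBX replicates 1 or 2 or Lip-C sham replicates 1 or 3 ended the bulbectomy call, with an adjusted p of at most 0.0971. Col3a1 encodes type III collagen of extensible tissues such as vessel walls, and had signals of 8801, 8710.4 and 5349.7 on Lip-C OBX arrays, 5300.1, 7423 and 4088 on Lip-O OBX arrays, 3076, 4049 and 3496 on Lip-C sham arrays, and 4299.9, 7808 and 7414 on Lip-O sham arrays. Its Lip-C sham signals again lay below those of every other array. The bulbectomy difference in Lip-C mice was 1.08 ± 0.28 (adjusted p = 0.0279), and the call was lost without Lip-C OBX replicates 1 or 2 or any Lip-C sham array (adjusted p of at most 0.102).

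Col5a1 and Col5a2, chains of the type V collagen that sets fibril width, ran alike, with bulbectomy differences in Lip-C mice of 1.11 ± 0.28 (adjusted p = 0.0239) and 1.24 ± 0.38 (adjusted p = 0.0442). In OBX mice the 5 Lip-C differences were 0.25 to 0.52, none called. Without Lip-O OBX replicate 3 those of Col1a1 and Col1a2 became -0.0604 and -0.017, so their sign rested on that array. In sham mice the 5 Lip-C differences of the fibrillar collagens ran from -2.07 to -0.84 with a median of -1.23, and none was called: that of Col1a1 was -2.07 ± 0.60 (adjusted p = 0.0884). For all 5 the groups did not overlap in that comparison, which held for 25 of 51 members (49.0%) and 29.6% of all genes.

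Promoter windows were taken for members that moved together, from RefSeq on build GRCm38.p6, each 300 bases long with 250 before the annotated gene start and 50 from it onward. Of the 52 members with a probe set, 35 had a window, and 17 did not, Col1a1 among them. Windows of Col1a2 (chr6:4505368-4505667, plus strand) and Col3a1 (chr1:45311288-45311587, plus strand) are printed because these chains changed together, with capitals marking matches to the motifs searched on both strands.
Col1a2: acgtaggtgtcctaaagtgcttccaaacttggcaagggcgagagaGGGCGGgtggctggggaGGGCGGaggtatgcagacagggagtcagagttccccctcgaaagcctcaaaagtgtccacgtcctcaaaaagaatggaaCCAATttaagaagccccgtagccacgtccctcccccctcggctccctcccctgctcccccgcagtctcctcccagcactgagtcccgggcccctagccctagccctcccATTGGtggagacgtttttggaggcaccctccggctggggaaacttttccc
Col3a1: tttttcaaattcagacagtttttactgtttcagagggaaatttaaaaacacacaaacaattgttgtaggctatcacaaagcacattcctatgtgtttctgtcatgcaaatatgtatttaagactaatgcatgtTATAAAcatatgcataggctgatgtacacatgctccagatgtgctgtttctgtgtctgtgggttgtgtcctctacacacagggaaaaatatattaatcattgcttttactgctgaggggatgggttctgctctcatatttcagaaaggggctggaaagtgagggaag
With the annotated first base as 0, the Col1a2 window held the CCAAT box (CCAAT) at -109 and, on the other strand, at 0, and the GC box (GGGCGG) at -205 and -188. The Col3a1 window held a TATA box (TATAAA) at -117 and no match to the CCAAT or GC box, and neither held the AP-1 motif (TGANTCA). Their GC contents were 61.0% and 37.7%. Over all 42 member windows, the GC box occurred in 61.9%, against 35.7% of all 32851 windows, the CCAAT box in 38.1% against 37.4%, the TATA box in 14.3% against 13.6% and the AP-1 motif in 4.76% against 7.81%. A match describes the letters of a window and not binding of a factor.

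**Figure D2:**
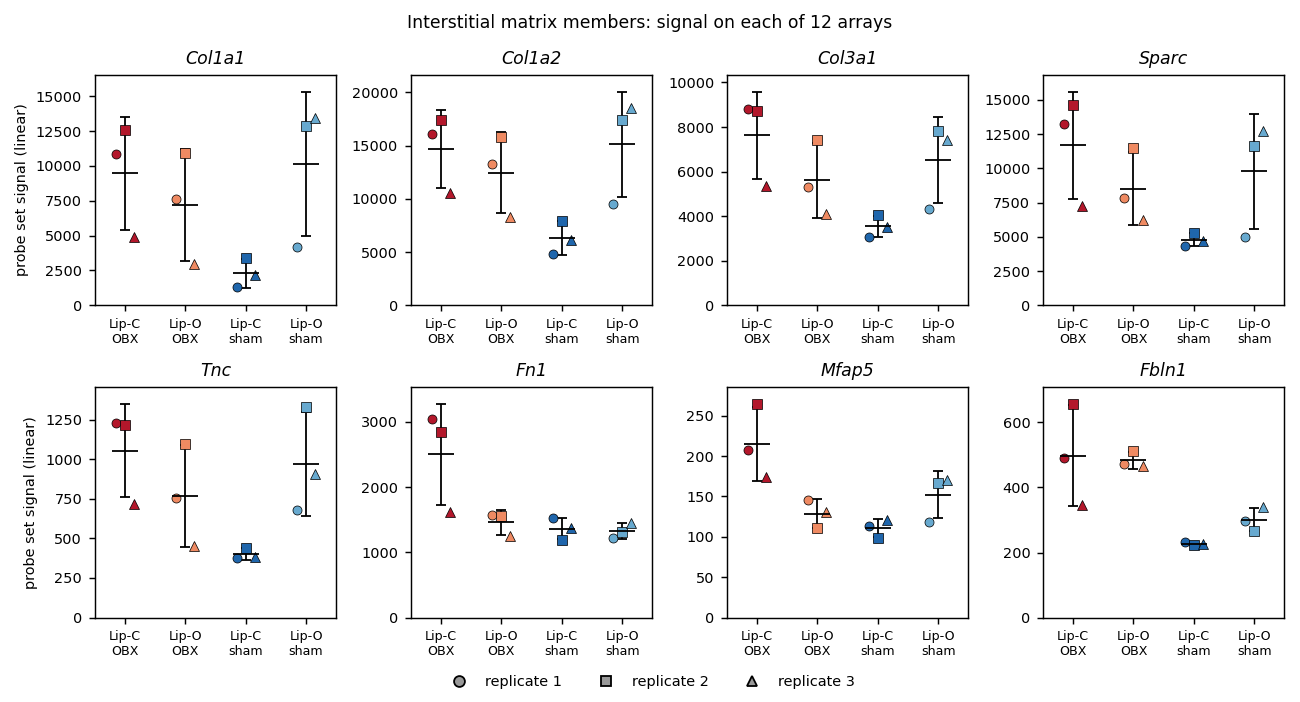
Probe set signal (linear axis from 0) of 8 interstitial matrix members on each array. Symbols are replicates 1 to 3, and bars give the mean ± SD of 3 arrays in each group, with OBX groups left of sham groups. Col1a1, Col1a2, Col3a1, Sparc and Tnc are low and close together on the Lip-C sham arrays, and the triangle, replicate 3, is the lowest of most OBX groups.

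Collagen VI forms beaded filaments at the border between fibrils and cells. Its 3 chains all had negative Lip-C differences in sham mice (median -0.62) and positive bulbectomy differences in Lip-C mice, where Col6a2 (1.10 ± 0.30, adjusted p = 0.0326) and Col6a3 (1.37 ± 0.39, adjusted p = 0.0357) were called. Col6a1 had signals of 1679, 1695 and 915 on Lip-C OBX arrays, 1189.8, 1367 and 879 on Lip-O OBX arrays, 799, 875 and 770.1 on Lip-C sham arrays, and 783, 1139.6 and 1104 on Lip-O sham arrays. Its 2 highest signals were Lip-C OBX replicates 1 and 2, and no Lip-C OBX array was as low as a Lip-C sham array. The bulbectomy difference of Col6a1 in Lip-C mice was 0.75 ± 0.24 (adjusted p = 0.0561) and did not pass, although it did without Lip-C OBX or Lip-O OBX replicate 3.

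Among the collagens that sit on fibril surfaces, Col12a1 (type XII) had signals of 1529, 1491 and 1369 on Lip-C OBX arrays, 1161, 1378 and 989 on Lip-O OBX arrays, 947, 812 and 985 on Lip-C sham arrays, and 940.2, 1075 and 1259.9 on Lip-O sham arrays. The 3 Lip-C OBX arrays were the tightest of its groups and lay above all sham arrays. It rose after bulbectomy in Lip-C mice by 0.67 ± 0.14 (adjusted p = 0.0117) and kept its call in all 12 fits that left out 1 array, whereas averaging the gene's probe sets gave an adjusted p of 0.0682. In Lip-O mice its difference was 0.10 ± 0.14 (adjusted p = 0.644). Col14a1 and Col16a1, of the same class, had bulbectomy differences in Lip-C mice of 0.86 ± 0.30 (adjusted p = 0.0693) and 0.59 ± 0.27 (adjusted p = 0.142).

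Of the 5 network and basement membrane collagens, 4 had positive differences in both Lip-C comparisons, and the median bulbectomy difference of the 5 was 0.49 in Lip-C mice and 0.56 in Lip-O mice. Col4a1 and Col4a2, whose products wind together into the main type IV collagen of basement membranes, are neighbours transcribed from opposite strands. Their windows, printed because both genes rose with bulbectomy averaged over liposomes, overlap on chromosome 8: Col4a1 chr8:11312777-11313076 (minus strand) and Col4a2 chr8:11312555-11312854 (plus strand). Capitals mark the 78 bases shared by both, which each line reads on its own strand.
Col4a1: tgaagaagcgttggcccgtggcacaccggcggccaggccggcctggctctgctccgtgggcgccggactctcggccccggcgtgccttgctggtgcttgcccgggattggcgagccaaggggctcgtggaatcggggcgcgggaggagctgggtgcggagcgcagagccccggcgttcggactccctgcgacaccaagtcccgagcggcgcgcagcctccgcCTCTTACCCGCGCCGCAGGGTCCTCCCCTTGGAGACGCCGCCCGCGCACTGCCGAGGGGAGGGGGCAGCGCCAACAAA
Col4a2: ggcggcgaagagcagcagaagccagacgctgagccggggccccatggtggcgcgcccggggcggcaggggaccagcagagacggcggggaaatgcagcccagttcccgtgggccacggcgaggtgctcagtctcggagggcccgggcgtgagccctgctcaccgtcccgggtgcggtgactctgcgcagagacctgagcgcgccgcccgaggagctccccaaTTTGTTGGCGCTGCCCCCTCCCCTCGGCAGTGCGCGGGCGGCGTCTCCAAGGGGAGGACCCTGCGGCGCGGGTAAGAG
The annotated starts were 21 bases apart, and 73.1% of the shared bases were G or C. Neither window held the TATA box, and each held the CCAAT box and the GC box.

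Col4a1 had signals of 990.2, 876 and 596 on Lip-C OBX arrays, 671, 521 and 579 on Lip-O OBX arrays, 619.9, 440.5 and 625 on Lip-C sham arrays, and 405, 394 and 378 on Lip-O sham arrays. The 3 Lip-O sham arrays were tight and lay below the other 9 arrays. Col4a2 had signals of 739, 625 and 565 on Lip-C OBX arrays, 488, 441 and 457 on Lip-O OBX arrays, 529, 443 and 553 on Lip-C sham arrays, and 343, 313 and 390.2 on Lip-O sham arrays. Here too every Lip-O sham array lay below every array of the other groups. Col4a2 differed after bulbectomy in Lip-C mice by 0.33 ± 0.12 (adjusted p = 0.082) and rose in Lip-O mice by 0.39 ± 0.12 (adjusted p = 0.0445). Averaged over both operations, Lip-C raised it by 0.49 ± 0.09 (adjusted p = 0.0246). The Lip-O call was lost without any Lip-O OBX array, Lip-O sham replicates 1 or 2, Lip-C OBX replicate 2 or Lip-C sham replicates 1 or 3 (adjusted p of at most 0.138). It was also lost under 6 other settings, among them quantile normalization and median centring. The averaged call was lost without 7 single arrays (at most 0.0628): Lip-C OBX replicates 1 and 2, Lip-C sham replicates 1 and 3, Lip-O OBX replicate 2 and Lip-O sham replicates 1 and 2. Col4a1 did not pass in either mouse group, at 0.52 ± 0.19 (adjusted p = 0.0756) in Lip-C mice and 0.56 ± 0.19 (adjusted p = 0.058) in Lip-O mice, but rose with bulbectomy averaged over both, by 0.54 ± 0.13 (adjusted p = 0.0112). In Lip-O mice it passed under 7 other settings, among them the mean of its probe sets, only the groups compared and the replicate number as a block (adjusted p = 0.0462, and at the lowest 0.0227). In Lip-C mice it passed without Lip-C OBX replicate 3 and without both OBX replicates 3 (at the lowest 0.0129).

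Col8a1, a short-chain network collagen of vessels, had signals of 1347, 1055 and 898 on Lip-C OBX arrays, 678, 782 and 611 on Lip-O OBX arrays, 588, 655 and 720.3 on Lip-C sham arrays, and 411, 554 and 430.1 on Lip-O sham arrays. All Lip-C OBX arrays lay above all other arrays. It rose after bulbectomy in Lip-C mice by 0.72 ± 0.16 (adjusted p = 0.0164) and in Lip-O mice by 0.56 ± 0.16 (adjusted p = 0.0358). The Lip-C call was lost without Lip-C OBX replicate 1 or Lip-C sham replicate 2 (adjusted p of at most 0.062) and the Lip-O call without Lip-O OBX replicates 1 or 2 or Lip-O sham replicates 1 or 3 (at most 0.109). The Lip-O call was also lost under 4 other settings, among them the mean of its probe sets, and the Lip-C call under 0. Col18a1, the source of endostatin in the basement membrane zone, had signals of 452, 437 and 437 on Lip-C OBX arrays, 451, 416 and 342 on Lip-O OBX arrays, 259.8, 359.6 and 320.1 on Lip-C sham arrays, and 199.6, 249 and 249 on Lip-O sham arrays. Both OBX groups lay above both sham groups but for Lip-O OBX replicate 3, at 341.5, and Lip-C sham replicate 2, at 359.6. Its rise in Lip-C mice, 0.49 ± 0.14 (adjusted p = 0.0326), was lost without any Lip-C OBX array or Lip-C sham replicates 1 or 3 (at most 0.0999), and its rise in Lip-O mice, 0.75 ± 0.14 (adjusted p = 0.0053), held in all 12 fits that left out 1 array. The related Col15a1 differed by -0.58 ± 0.20 (adjusted p = 0.136) for Lip-C in sham mice, with a Lip-C sham mean under the arrays' 40th percentile of signals.

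**Figure D3:**
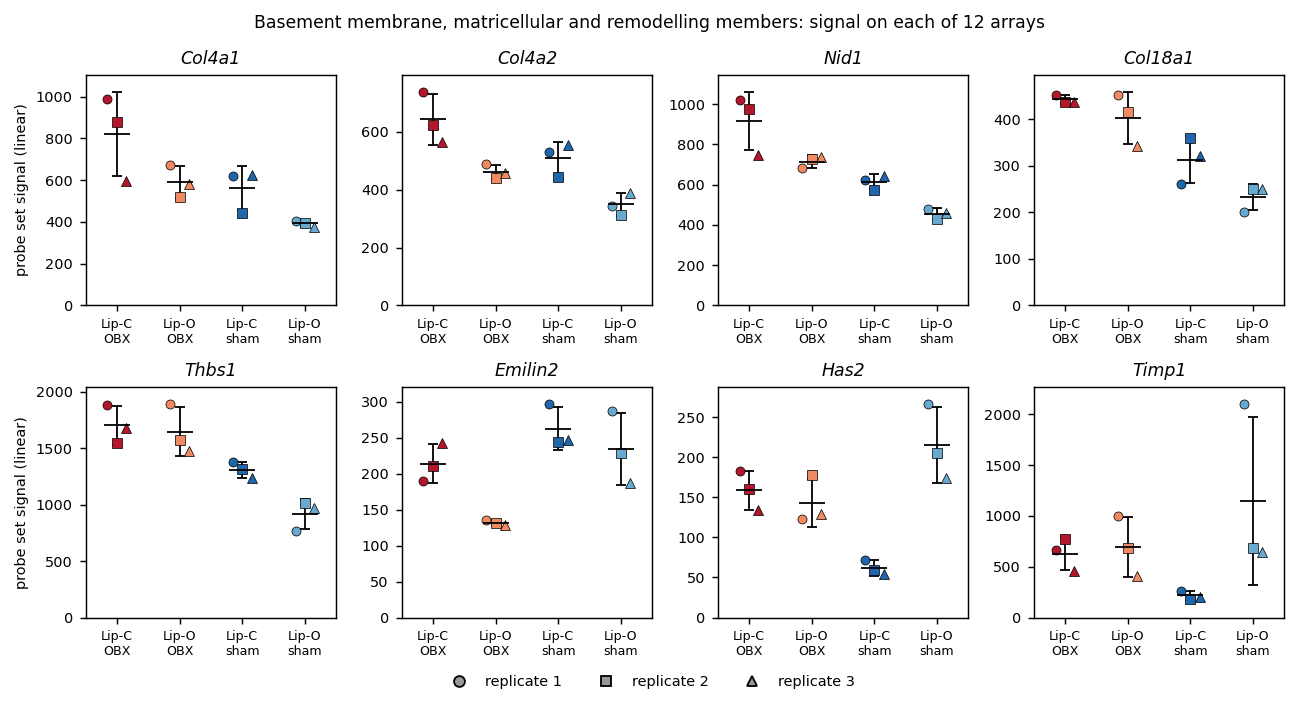
Probe set signal (linear axis from 0) of 8 basement membrane, matricellular and remodelling members on each array. Symbols are replicates 1 to 3, and bars give the mean ± SD of 3 arrays in each group. Col4a1, Col4a2 and Nid1 are lowest on the 3 Lip-O sham arrays, Has2 on the 3 Lip-C sham arrays, and Emilin2 on the 3 Lip-O OBX arrays.

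Nidogen-1 links laminin to type IV collagen. Nid1 had signals of 1022, 976 and 749 on Lip-C OBX arrays, 680.3, 725 and 738 on Lip-O OBX arrays, 625, 573 and 644 on Lip-C sham arrays, and 481, 428 and 460.2 on Lip-O sham arrays. Its 4 groups did not overlap, with the Lip-C OBX arrays highest, then the Lip-O OBX, the Lip-C sham and the Lip-O sham arrays. Nid1 rose after bulbectomy in Lip-C mice by 0.55 ± 0.11 (adjusted p = 0.0109) and in Lip-O mice by 0.63 ± 0.11 (adjusted p = 0.0049), and both calls held in all 12 fits that left out 1 array. The mean of its probe sets did not pass in either (adjusted p of 0.139 in Lip-C and 0.1 in Lip-O mice). Averaged over both operations, Lip-C raised it by 0.38 ± 0.08 (adjusted p = 0.0464), a call that was lost without any single array but Lip-C OBX replicate 3 (at most 0.11). Among the other members of this group, Lamc1, the laminin gamma 1 chain, rose in Lip-C mice (0.43 ± 0.12, adjusted p = 0.0329) and in Lip-O mice (0.39 ± 0.12, adjusted p = 0.042), and Nid2 rose in Lip-C mice (0.64 ± 0.15, adjusted p = 0.0206). The Lip-O call on Lamc1 was lost without any Lip-O OBX array, Lip-O sham replicates 1 or 3, Lip-C OBX replicate 1 or Lip-C sham replicates 2 or 3 (adjusted p of at most 0.146), and with the replicate number as a block (0.0526). Lama2, Lama4, Lamb1 and the perlecan gene Hspg2 passed in neither, and of all 51 members only Lama2 had a negative bulbectomy difference in Lip-C mice (-0.23) and a positive one in Lip-O mice (0.34).

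Among adhesive and matricellular glycoproteins, fibronectin (Fn1) had signals of 3051, 2842 and 1622 on Lip-C OBX arrays, 1575, 1556 and 1244 on Lip-O OBX arrays, 1530.4, 1195 and 1372 on Lip-C sham arrays, and 1218, 1305 and 1457 on Lip-O sham arrays. The 3 Lip-C OBX arrays were the highest, and the Lip-O OBX arrays overlapped both sham groups. Its rise after bulbectomy in Lip-C mice was 0.82 ± 0.21 (adjusted p = 0.0249), and the difference in Lip-O mice was 0.13 ± 0.21 (adjusted p = 0.707). The Lip-C call was lost without Lip-C OBX replicates 1 or 2 or Lip-C sham replicates 2 or 3 (adjusted p of at most 0.0967). For Lip-C in OBX mice Fn1 differed by 0.73 ± 0.21 (adjusted p = 0.183) and passed without Lip-C OBX replicate 3.

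Tenascin-C, an anti-adhesive protein of injured and developing tissue, is encoded by Tnc, with signals of 1230.2, 1218 and 715 on Lip-C OBX arrays, 755, 1094 and 452 on Lip-O OBX arrays, 379, 442 and 380.0 on Lip-C sham arrays, and 680.0, 1329 and 905 on Lip-O sham arrays. Its Lip-C sham signals were the 3 lowest of all 12. The bulbectomy difference in Lip-C mice was 1.32 ± 0.33 (adjusted p = 0.0221), lost without Lip-C OBX replicates 1 or 2 or any Lip-C sham array (at most 0.0845). The Lip-O difference was -0.37 ± 0.33 (adjusted p = 0.467), with overlapping groups.

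Periostin (Postn), a collagen-binding matricellular protein, had signals of 5453, 5428 and 4188 on Lip-C OBX arrays, 4819, 4694 and 3312 on Lip-O OBX arrays, 2957, 3396 and 2775 on Lip-C sham arrays, and 3704, 4706 and 3858 on Lip-O sham arrays. All Lip-C OBX arrays lay above all Lip-C sham arrays, and the Lip-O groups overlapped. Its rise in Lip-C mice was 0.71 ± 0.17 (adjusted p = 0.0177), lost without Lip-C OBX replicates 1 or 2 or Lip-C sham replicate 3 (at most 0.0716). Sparc, which binds collagen as it is secreted, had signals of 13213, 14606 and 7252 on Lip-C OBX arrays, 7836, 11481 and 6244 on Lip-O OBX arrays, 4364, 5278 and 4725 on Lip-C sham arrays, and 4974, 11660.2 and 12729.6 on Lip-O sham arrays. The Lip-O sham arrays of Sparc spread widely, with replicate 1 among the low arrays. Sparc rose in Lip-C mice by 1.23 ± 0.37 (adjusted p = 0.0434), a call lost without Lip-C OBX replicates 1 or 2, any Lip-C sham array, Lip-O OBX replicate 1 or Lip-O sham replicate 2 (at most 0.141).

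Thrombospondin-1, which can activate latent TGF-beta and restrains vessel growth, is encoded by Thbs1, with signals of 1882, 1542 and 1675 on Lip-C OBX arrays, 1890.5, 1570.4 and 1477 on Lip-O OBX arrays, 1377, 1314 and 1231 on Lip-C sham arrays, and 769.8, 1009.7 and 970.1 on Lip-O sham arrays. The Lip-O sham arrays were the lowest, the Lip-C sham arrays lay above them without overlap, and all OBX arrays lay above all sham arrays. Thbs1 rose after bulbectomy in Lip-O mice by 0.84 ± 0.13 (adjusted p = 0.00272), the smallest p of any member in that comparison, and the call held in all 12 fits that left out 1 array. In Lip-C mice its difference was 0.37 ± 0.13 (adjusted p = 0.0651), and for Lip-C in sham mice 0.51 ± 0.13 (adjusted p = 0.0622), neither called. Thbs2, its relative, rose in Lip-C mice by 0.80 ± 0.22 (adjusted p = 0.0343) and differed by 0.01 ± 0.22 (adjusted p = 0.975) in Lip-O mice.

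Small leucine-rich proteoglycans bind collagen fibrils and limit their width. Lumican (Lum) had signals of 5775, 4998 and 3769 on Lip-C OBX arrays, 3465, 5174 and 2401 on Lip-O OBX arrays, 2039.7, 3292 and 2613 on Lip-C sham arrays, and 2945, 6085 and 5718 on Lip-O sham arrays. Its Lip-O sham arrays held both its highest signal and, in replicate 1, one of its low ones, and it passed in no comparison: the bulbectomy difference in Lip-C mice was 0.87 ± 0.33 (adjusted p = 0.0894). Decorin (Dcn) had signals of 10296, 9441 and 7740.3 on Lip-C OBX arrays, 11155, 11538 and 10758 on Lip-O OBX arrays, 7516, 6876 and 7006 on Lip-C sham arrays, and 8908, 10542 and 10127 on Lip-O sham arrays. Dcn was highest on the Lip-O OBX arrays, and within each operation every Lip-C array lay below every Lip-O array. Averaged over both operations, Dcn fell with Lip-C by 0.38 ± 0.08 (adjusted p = 0.041), and bulbectomy in Lip-C mice raised it by 0.35 ± 0.11 (adjusted p = 0.0451). The Lip-C call was lost without any 1 array other than Lip-C OBX replicates 1 and 3 and Lip-O sham replicate 1 (at most 0.101), and the bulbectomy call without any 1 other than Lip-C OBX replicate 3 and Lip-O sham replicate 1 (at most 0.161). The Lip-C call was also lost under 6 other settings and the bulbectomy call under 7. Quantile normalization and the mean of its probe sets were among both. Biglycan (Bgn) rose in Lip-C mice by 0.96 ± 0.29 (adjusted p = 0.0413), and Fmod and Ogn differed there by 1.01 ± 0.34 (adjusted p = 0.0602) and 0.90 ± 0.29 (adjusted p = 0.0535).

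Elastic fibre proteins included members that rose after bulbectomy with either liposome and 1 that fell. Fibulin-1 (Fbln1), which binds elastin and basement membrane proteins, had signals of 491, 657 and 346 on Lip-C OBX arrays, 472, 514 and 465 on Lip-O OBX arrays, 231, 224 and 227 on Lip-C sham arrays, and 297, 267 and 341 on Lip-O sham arrays. Every OBX array lay above every sham array. Fbln1 rose in Lip-C mice by 1.03 ± 0.18 (adjusted p = 0.00702), a call kept in all 12 fits that left out 1 array, and in Lip-O mice by 0.66 ± 0.18 (adjusted p = 0.0288), lost without any Lip-O OBX array or Lip-O sham replicates 1 or 2 (at most 0.0901). Fibulin-2 (Fbln2) had signals of 178, 170.5 and 172 on Lip-C OBX arrays, 197, 158 and 197 on Lip-O OBX arrays, 119.6, 140.1 and 134 on Lip-C sham arrays, and 106, 125 and 138 on Lip-O sham arrays. Its OBX arrays also lay above all sham arrays, and it rose in Lip-C mice by 0.37 ± 0.11 (adjusted p = 0.0394) and in Lip-O mice by 0.52 ± 0.11 (adjusted p = 0.00911). The Lip-C call was lost without any Lip-C OBX or Lip-C sham array or Lip-O sham replicate 2 (at most 0.118), and the Lip-O call held in all 12 fits.

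Mfap5, a microfibril protein, had signals of 207, 265 and 174 on Lip-C OBX arrays, 145, 110.5 and 131 on Lip-O OBX arrays, 113, 98.8 and 120.4 on Lip-C sham arrays, and 119, 167 and 170.4 on Lip-O sham arrays. The 3 Lip-C OBX arrays were the highest of all 12, and Lip-O OBX arrays overlapped both sham groups. It rose in Lip-C mice by 0.85 ± 0.17 (adjusted p = 0.00983), kept in all 12 fits, and differed by -0.21 ± 0.17 (adjusted p = 0.424) in Lip-O mice. Elastin (Eln) had signals of 415, 382 and 206 on Lip-C OBX arrays, 281, 267 and 250.0 on Lip-O OBX arrays, 185, 275 and 268 on Lip-C sham arrays, and 128, 241 and 205 on Lip-O sham arrays. The Lip-O OBX arrays lay just above the Lip-O sham arrays, and the Lip-C groups overlapped. Eln passed in no comparison, with 0.40 ± 0.27 (adjusted p = 0.317) in Lip-C mice and 0.48 ± 0.27 (adjusted p = 0.238) in Lip-O mice.

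Emilin2, an elastin-associated glycoprotein, had another order of groups, with signals of 189, 210.3 and 243 on Lip-C OBX arrays, 135, 132 and 128 on Lip-O OBX arrays, 297, 244 and 247 on Lip-C sham arrays, and 287, 228 and 188 on Lip-O sham arrays. The Lip-O OBX arrays were tight and lay below all others, and the Lip-C OBX arrays lay between them and the Lip-C sham arrays. Emilin2 fell after bulbectomy in Lip-O mice by 0.74 ± 0.14 (adjusted p = 0.00657), kept in all 12 fits that left out 1 array, and differed by -0.28 ± 0.14 (adjusted p = 0.188) in Lip-C mice. It was the sole member with a negative bulbectomy difference in both mouse groups. For Lip-C in OBX mice it differed by 0.63 ± 0.14 (adjusted p = 0.108), the smallest p of any member there. Its relative Emilin1 rose in Lip-C mice by 1.06 ± 0.33 (adjusted p = 0.0483), and Fbln5, the fibulin that helps assemble elastic fibres, differed there by 0.24 ± 0.17 (adjusted p = 0.33).

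Hyaluronan is a large sugar polymer of loose connective tissue, made at the cell surface by Has2 and bound by versican (Vcan). Has2 had signals of 182, 161 and 134 on Lip-C OBX arrays, 123, 178 and 129 on Lip-O OBX arrays, 72.4, 59.4 and 53.9 on Lip-C sham arrays, and 266, 205 and 174 on Lip-O sham arrays. All 3 Lip-C sham arrays lay below the other 9, and their mean of 61.9 ± 9.50 (SD, n = 3) lay under the 40th percentile of signals, which was 65.3 to 79.3 over the arrays. The Lip-O sham mean was 214.9 ± 47.2 (SD, n = 3). Has2 fell with Lip-C in sham mice by 1.56 ± 0.18 (adjusted p = 0.00622), a call kept in all 12 fits that left out 1 array and under every other setting tried. After bulbectomy it rose in Lip-C mice by 1.16 ± 0.18 (adjusted p = 0.00483), also kept throughout, and differed by -0.53 ± 0.18 (adjusted p = 0.058) in Lip-O mice, where the adjusted p was 0.0329 with the replicate number as a block. The Lip-C sham call and the Lip-C bulbectomy call both rest on the same Lip-C sham arrays. The interaction of Has2, 1.70 ± 0.25, had an adjusted p of 0.0751, and of 0.0193 without Lip-O OBX replicate 2. In the fit without that array 1.17% of all genes were called for the interaction, against 0.0% with all arrays. Vcan, with 1 of 8 probe sets kept, passed in no comparison.

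The 3 members that cross-link collagen or help trim its ends all had negative Lip-C differences in sham mice and positive ones in OBX mice. Lysyl oxidase (Lox), which starts collagen and elastin cross-links, had signals of 1692, 1633 and 1555 on Lip-C OBX arrays, 1721, 1200.0 and 1416 on Lip-O OBX arrays, 1227, 1074 and 963 on Lip-C sham arrays, and 1736, 1286 and 1269.9 on Lip-O sham arrays. Its 2 lowest signals were on Lip-C sham arrays, and the Lip-O groups overlapped. Lox rose after bulbectomy in Lip-C mice by 0.58 ± 0.15 (adjusted p = 0.0283), a call lost without Lip-C OBX replicates 1 or 2 or Lip-C sham replicates 2 or 3 (at most 0.0954). Pcolce, which speeds removal of the procollagen C-propeptide, rose there by 1.24 ± 0.30 (adjusted p = 0.0193), and Loxl1 differed by 0.63 ± 0.21 (adjusted p = 0.06). None of the 3 passed in Lip-O mice.

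Among metalloproteinases, Mmp2, a gelatinase, had signals of 2363, 2383 and 1544 on Lip-C OBX arrays, 2116, 1774 and 1393 on Lip-O OBX arrays, 1542, 1292 and 1248 on Lip-C sham arrays, and 1340.2, 1724 and 1616 on Lip-O sham arrays. No Lip-C OBX array was as low as the Lip-C sham arrays, but the difference of 0.60 ± 0.20 (adjusted p = 0.0557) did not pass; it did without Lip-C OBX or Lip-O OBX replicate 3. Mmp14, the membrane protease that activates pro-Mmp2, fell after bulbectomy in Lip-O mice by 0.59 ± 0.18 (adjusted p = 0.0393). Another kept probe set of Mmp14 had a difference of 0.06 there, so its probe sets disagreed, and the call was lost without 8 single arrays (at most 0.109): Lip-C OBX replicate 2, Lip-C sham replicates 2 and 3, Lip-O OBX replicates 2 and 3 and each Lip-O sham array. Timp1, an inhibitor of these proteases, had signals of 665, 771 and 455 on Lip-C OBX arrays, 996, 687 and 404 on Lip-O OBX arrays, 264, 188 and 201 on Lip-C sham arrays, and 2102, 686 and 650.0 on Lip-O sham arrays. One Lip-O sham array, replicate 1, was about 3 times as high as its partners, and all 3 Lip-C sham arrays were lower than every other array. Timp1 fell with Lip-C in sham mice by 2.11 ± 0.44 (adjusted p = 0.041) and rose after bulbectomy in Lip-C mice by 1.45 ± 0.44 (adjusted p = 0.043). The sham call was lost without any of 8 arrays: each of the 6 sham arrays and Lip-C OBX replicates 1 and 2 (adjusted p of at most 0.125). The bulbectomy call was lost without Lip-C OBX replicates 1 or 2, any Lip-C sham array or Lip-O OBX replicate 2 (at most 0.133). Timp2 and Timp3 passed in neither bulbectomy comparison, though Timp2 rose averaged over both (0.25 ± 0.06, adjusted p = 0.0118).

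Setting the comparisons side by side, 29 of 51 members had a positive Lip-C difference in OBX mice and a negative one in sham mice, 17 were positive in both, 3 negative in both (Dcn, Fbln1 and Timp1) and 2 negative in OBX and positive in sham mice (Fbln2 and Lama2). These 2 comparisons share no arrays. Of all genes, 51.3% had a positive Lip-C difference in OBX mice and 50.6% in sham mice. The combined signs were not counted over all genes. Among the 17 were Col4a1, Col4a2, Col8a1, Col18a1, Nid1, Lamc1 and Thbs1, and among the 29 all fibrillar and collagen VI chains. The bulbectomy difference was larger in Lip-C than in Lip-O mice for 40 of 51 members (78.4%, against 49.7% of all genes). Members called in both mouse groups were Col18a1, Col8a1, Fbln1, Fbln2, Lamc1 and Nid1, all higher, which make up 21.4% of the Lip-C list and 60.0% of the Lip-O list. With the replicate number as a block, Lamc1 was not called in Lip-O mice (adjusted p = 0.0526). The overlap of these lists over all genes was not counted. The difference itself was tested as the interaction, and limma called 0 of 51 members, as it did 0 of all genes (0.0%). In that test 24 members (47.1%) had an unadjusted p under 0.05, against 17.6% of all genes, with a median of 0.57 against -0.00207. Groups did not overlap for 39 members (76.5%) after bulbectomy in Lip-C mice, against 40.2% of all genes, and for 16 members (31.4%) in Lip-O mice, against 37.7%.

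**Figure D4:**
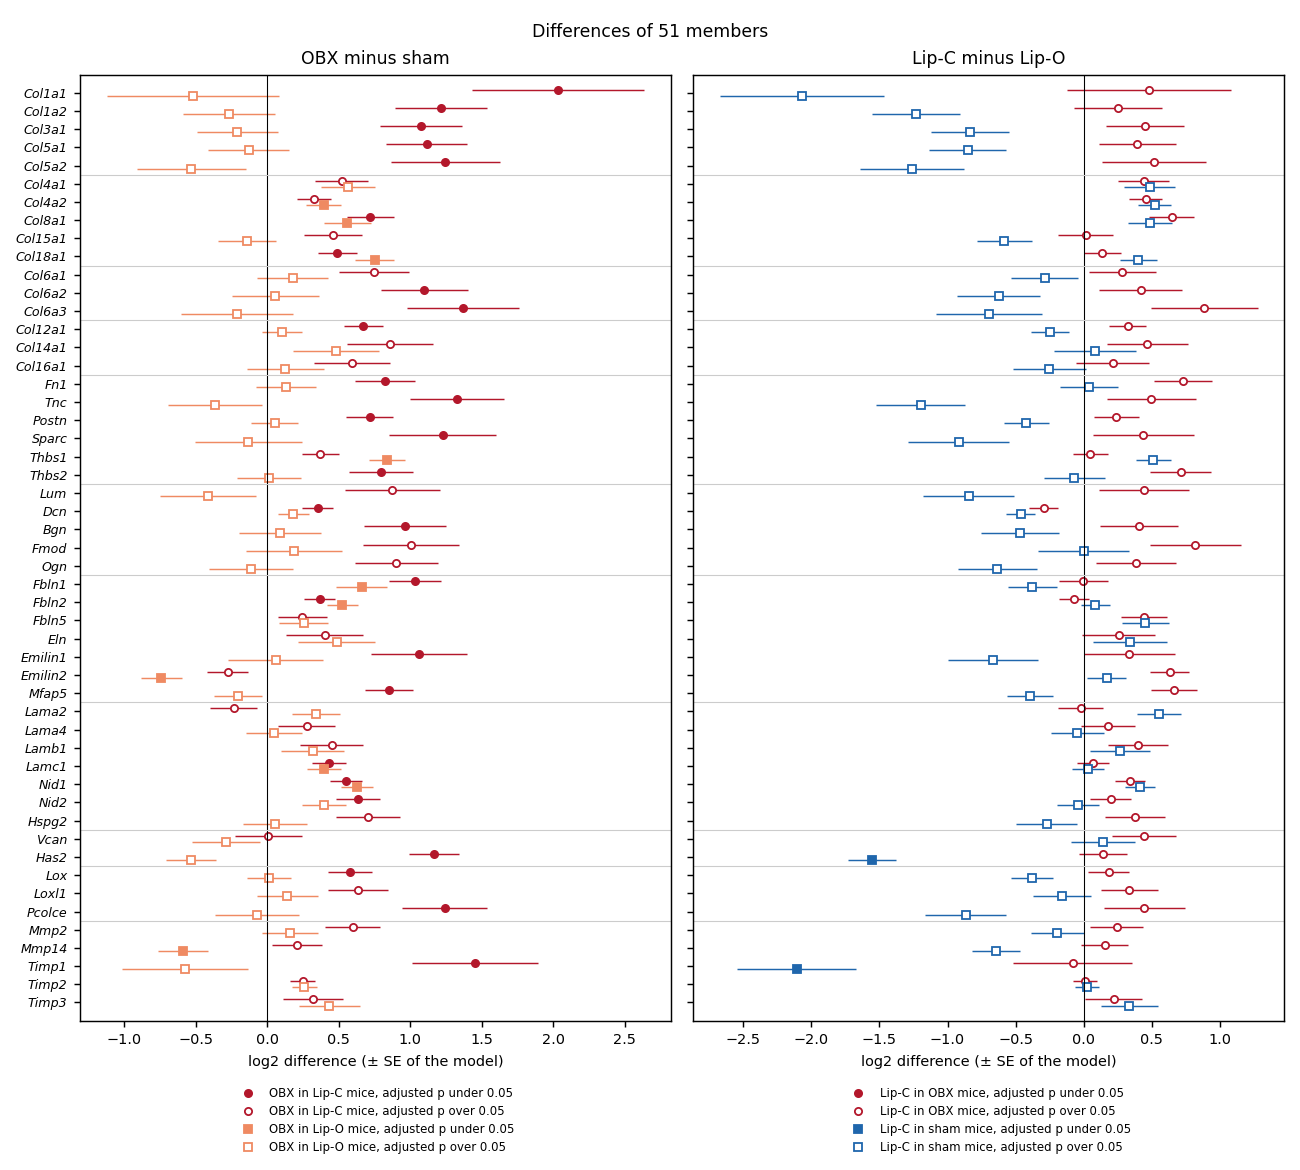
Log2 differences of 51 members (points, with bars of ± 1 SE from the model), by role. The left panel gives OBX minus sham in Lip-C mice (circles) and Lip-O mice (squares), and the right panel Lip-C minus Lip-O in OBX mice (circles) and sham mice (squares); filled symbols have an adjusted p under 0.05. Circles of the fibrillar collagens lie right of 0 and their squares left of 0 in both panels, while both symbols of Col4a1, Col4a2 and Nid1 lie right of 0.

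The number of members called depended on single arrays. After bulbectomy in Lip-C mice it was 28 in all. It was 5 without Lip-C OBX replicate 1, 7 without replicate 2 and 38 without replicate 3, against 10 without Lip-C sham replicate 1 and 8 without either of its partners. Calls over all genes moved with these counts: the share called was 6.16% (9.8% of members), 7.65% (13.7%) and 22.2% (74.5%) without each Lip-C OBX array in that order, and 14.2% (19.6%), 7.72% (15.7%) and 8.9% (15.7%) without each Lip-C sham array, against 19.1% (54.9%) with all arrays. The calls on Bgn, Col5a1, Col5a2, Col6a2, Col6a3, Emilin1, Lamc1, Nid2, Pcolce and Thbs2 were each lost when Lip-C OBX replicate 1, replicate 2 or either of at least 2 Lip-C sham arrays was left out alone, with an adjusted p of at most 0.172. The median difference of the 51 members stayed between 0.591 and 0.84 in the 12 fits that left out 1 array. In Lip-O mice the count of 10 was 6 without each Lip-O OBX array, where 10.4% to 18.5% of all genes were called, and 5 without Lip-O sham replicate 1, where 13.7% were, and the median difference was -0.016 without Lip-O OBX replicate 2 and -0.0153 without Lip-O sham replicate 1. For Lip-C in sham mice the count of 2 was 1 without Lip-C OBX replicates 1 or 2, any Lip-C sham array or Lip-O sham replicates 2 or 3, 4 without Lip-C OBX replicate 3 and 3 without Lip-O OBX replicate 1. Over the 12 fits that left out 1 array, 0.125% to 2.33% of all genes were called there. For Lip-C in OBX mice it was 1, Fn1, without Lip-C OBX replicate 3 (1.96% of members, against 0.139% of all genes). For the interaction it was 1, Has2, without Lip-O OBX replicate 2 (1.96% of members, against 1.17% of all genes). The interaction calls over all genes thus also depended on that array, since 0.0% were called with all arrays.

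Arrays of a group differed in their matrix signal. Lip-C OBX replicate 3 was the lowest of its group for 46 of 51 members (90.2%, against 40.4% of all genes), Lip-O OBX replicate 3 for 37 (72.5%, against 37.0%) and Lip-O sham replicate 1 for 39 (76.5%, against 38.5%). Among Lip-C sham arrays, replicate 1 was lowest for 25 (49.0%, against 34.8%). Without both OBX replicates 3, a setting chosen after these values were seen, 37 members were called after bulbectomy in Lip-C mice and 11 in Lip-O mice. The shares were 72.5% against 23.0% of all genes in Lip-C mice and 21.6% against 20.2% in Lip-O mice. The summed signal of the 51 members was 80795 to 126596 on Lip-C OBX arrays, 68719 to 109790 on Lip-O OBX arrays, 54706 to 63099 on Lip-C sham arrays and 68125 to 111752 on Lip-O sham arrays.

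Markers of bone and cartilage also differed between the groups. Summed over 7 osteoblast and osteocyte markers, signal was 4271 to 7869 on Lip-C OBX arrays, 4569.9 to 9004 on Lip-O OBX arrays, 2457 to 2779 on Lip-C sham arrays and 7329 to 10491 on Lip-O sham arrays. Of these 7, 2 were lower with Lip-C in sham mice (28.6%, where 0.814% of all genes fell), Ibsp (-1.92 ± 0.21, adjusted p = 0.00616) and Dmp1 (-3.84 ± 0.68, adjusted p = 0.0285). After bulbectomy in Lip-C mice 4 rose (57.1%, where 10.3% of all genes rose). The 8 osteoclast markers summed to 7213 to 12280.2 on Lip-C OBX arrays, 8554 to 13729 on Lip-O OBX arrays, 6994 to 7876 on Lip-C sham arrays and 13322 to 15161 on Lip-O sham arrays. The 16 cartilage markers summed to 5896 to 14597 on Lip-C OBX arrays, 4177 to 6266 on Lip-O OBX arrays, 3561 to 3945 on Lip-C sham arrays and 2957 to 5623 on Lip-O sham arrays. Bulbectomy raised 13 of the 16 cartilage markers in Lip-C mice (81.2%, where 19.1% of all genes changed and 10.3% rose). In Lip-O mice it raised 3 (18.8%, where 19.6% changed and 10.7% rose). Col9a3 rose in both, by 1.62 ± 0.26 (adjusted p = 0.00551) in Lip-C mice and 1.25 ± 0.26 (adjusted p = 0.00968) in Lip-O mice. Sox9, a transcription factor of cartilage, also rose in both, by 0.86 ± 0.14 (adjusted p = 0.00623) in Lip-C mice and 1.05 ± 0.14 (adjusted p = 0.00168) in Lip-O mice, and the third in Lip-O mice was Col9a1 (0.85 ± 0.17, adjusted p = 0.00864). The interaction was called for 0 of the 16. Calls on these and the other marker and gene lists come from the main fit alone and were not repeated without single arrays. Within the Lip-C OBX group the cartilage sum was 14597 and 12776 on replicates 1 and 2 and 5896 on replicate 3. Col9a1 had signals of 948.8 to 2027 over all arrays, while Col2a1 had 49.2 to 270.3 outside the Lip-C OBX group. Whether the rises in Lip-O mice came from cartilage was not tested. Osteoblast sums, like Col1a1, were low on all 3 Lip-C sham arrays. For Lip-C in OBX mice, however, the osteoblast median was -0.0145, with 3 of 7 positive, against 0.449 for the 5 fibrillar collagens, all positive. The lowest cartilage sum was that of Lip-O sham replicate 1, and the Lip-C sham sums lay within the Lip-O sham range. The part of bone and cartilage in the collagen results was not tested.

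**Figure D5:**
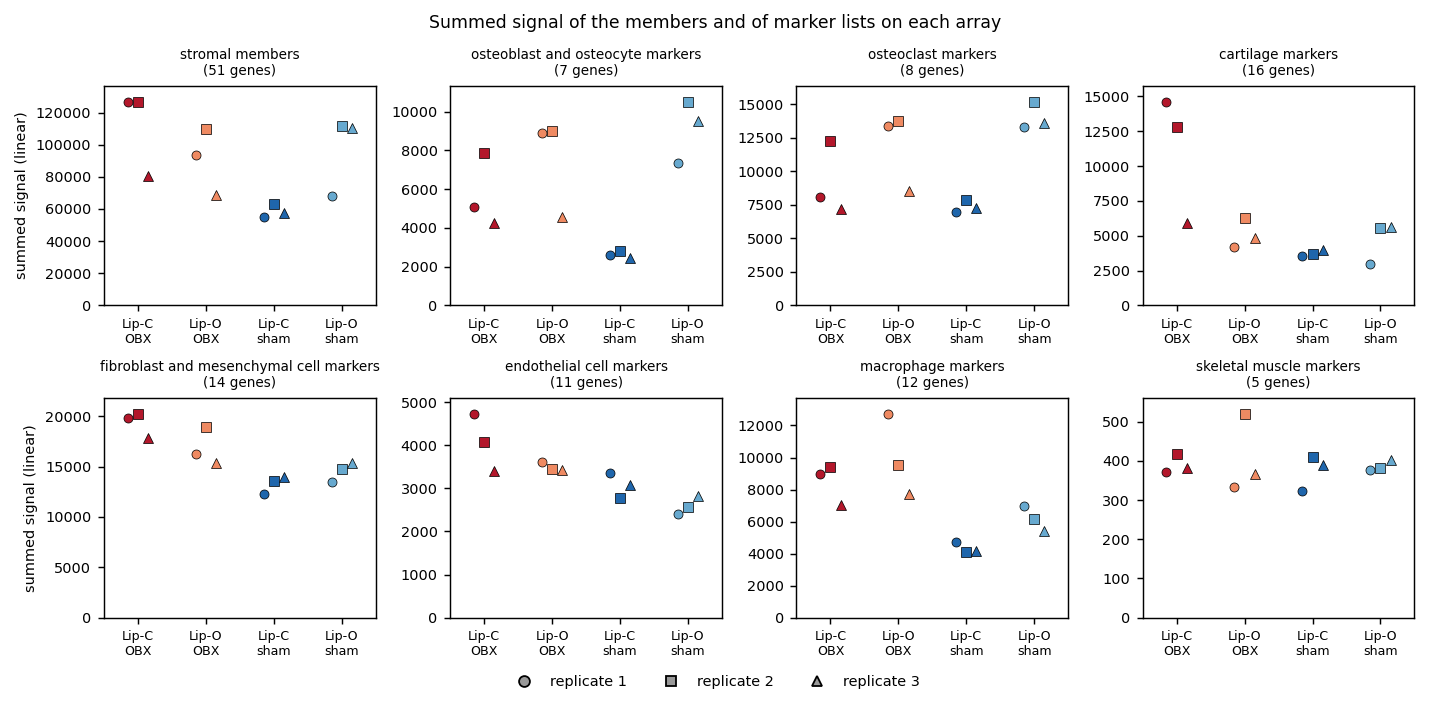
Summed signal (linear axis from 0) of the 51 members and of 7 marker lists on each array. Symbols are replicates 1 to 3. The sums of the members and of the osteoblast and osteocyte markers are low and close together on the 3 Lip-C sham arrays, and the skeletal muscle sum stays between 322 and 519 on all arrays.

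Other stromal cell markers differed between the groups as well. The 14 fibroblast and mesenchymal markers summed to 17794 to 20193 on Lip-C OBX arrays, 15385 to 18956 on Lip-O OBX arrays, 12296 to 13918 on Lip-C sham arrays and 13452 to 15399 on Lip-O sham arrays. The Lip-C OBX arrays lay above all sham arrays, and the Lip-O OBX arrays overlapped the Lip-O sham arrays at their lowest. Of these, 6 rose after bulbectomy in Lip-C mice (42.9%, where 10.3% of all genes rose), among them Vim (0.45 ± 0.10, adjusted p = 0.0126) and Cd34 (0.93 ± 0.22, adjusted p = 0.0206). In Lip-O mice 0 rose, where 10.7% of all genes did. The 11 endothelial markers summed to 3411 to 4722 on Lip-C OBX arrays, 3431 to 3605 on Lip-O OBX arrays, 2766 to 3348 on Lip-C sham arrays and 2402 to 2819 on Lip-O sham arrays. The lowest arrays of that sum, like those of the type IV collagens, were Lip-O sham arrays, here with an overlap with Lip-C sham arrays. The 11 mural cell markers summed to 31701 to 35707 on Lip-C OBX arrays, 30272 to 32964 on Lip-O OBX arrays, 25644 to 27279 on Lip-C sham arrays and 23923 to 25981 on Lip-O sham arrays. The 12 macrophage markers summed to 7023 to 9398 on Lip-C OBX arrays, 7745 to 12703 on Lip-O OBX arrays, 4088 to 4711 on Lip-C sham arrays and 5383 to 6960.3 on Lip-O sham arrays, lower with Lip-C under each operation at the group medians. Of 9 markers of olfactory ensheathing and Schwann cells, which wrap the olfactory nerve bundles, 4 rose after bulbectomy in Lip-C mice (44.4%, where 10.3% of all genes rose). In Lip-O mice 3 did (33.3%, where 10.7% rose). The 5 skeletal muscle markers summed to 322 to 519 over all arrays. No marker tested was at 0 on any array, and the part of these cell types in the matrix results was not tested.

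Genes that make, fold and break down collagen were read beside the members. Of 19 for synthesis and folding, bulbectomy in Lip-C mice raised 9 and lowered 1 (52.6%, where 19.1% of all genes changed), and in Lip-O mice raised 2 and lowered 1 (15.8%, where 19.6% changed). The 9 included the lysyl hydroxylases Plod1 (0.57 ± 0.10, adjusted p = 0.00757), Plod2 (0.73 ± 0.16, adjusted p = 0.0145) and Plod3 (0.42 ± 0.09, adjusted p = 0.0137), which prepare collagen for cross-linking, and Bmp1 (0.79 ± 0.16, adjusted p = 0.0103), the procollagen C-proteinase that Pcolce assists. Serpinh1, the collagen chaperone, differed by -1.36 ± 0.38 (adjusted p = 0.0809) for Lip-C in sham mice, where 0 of the 19 were called. Of 23 genes of matrix breakdown, 2 were lower with Lip-C in sham mice (8.7%, where 0.814% of all genes fell). These were the proteases Ctsk (-2.37 ± 0.37, adjusted p = 0.0216) and Mmp9 (-1.61 ± 0.31, adjusted p = 0.0337), which are on the osteoclast list too. After bulbectomy in Lip-C mice 5 rose and 1 fell (26.1%), among them the collagen uptake receptor Mrc2 (1.12 ± 0.26, adjusted p = 0.018).

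Matrix receptors and genes of TGF-beta signalling were read in the same way. Of 24 receptors, bulbectomy raised 6 and lowered 2 in Lip-C mice (33.3%, where 19.1% of all genes changed), and raised 3 and lowered 1 in Lip-O mice (16.7%, where 19.6% changed). The collagen-binding integrin chain Itga1 rose in Lip-C mice (0.98 ± 0.14, adjusted p = 0.00464) and stood at 0.09 ± 0.14 (adjusted p = 0.682) in Lip-O mice. The laminin-binding chain Itga6 rose in both, by 0.58 ± 0.13 (adjusted p = 0.0143) in Lip-C mice and 0.62 ± 0.13 (adjusted p = 0.00864) in Lip-O mice. Itga7, another laminin-binding chain, rose in Lip-O mice (0.87 ± 0.14, adjusted p = 0.0029) and stood at 0.17 ± 0.14 (adjusted p = 0.407) in Lip-C mice. The interaction was called for 0 of the 24. Of 28 TGF-beta genes and targets, 7 rose and 2 fell in Lip-C mice (32.1%) and 5 rose in Lip-O mice (17.9%). Ccn2, a classical target, was the 1 gene of this list called for Lip-C in sham mice, where it was higher (1.48 ± 0.24, adjusted p = 0.0254), and it rose after bulbectomy in Lip-O mice (1.07 ± 0.24, adjusted p = 0.0139), with -0.57 ± 0.24 (adjusted p = 0.124) in Lip-C mice. Thbs1 and the type IV collagens, with positive differences in those same comparisons, share the Lip-O sham arrays with it. Of 41 other collagens and matrix proteins, 10 rose and 1 fell after bulbectomy in Lip-C mice (26.8%), and 7 rose and 1 fell in Lip-O mice (19.5%). Counting rises and falls together, the Lip-O shares of these 3 lists lay below the 19.6% of all genes that changed. Most of these calls were rises, and 10.7% of all genes rose there. The 17.9% of the TGF-beta list, all rises, lay above that share. Lamb3, a laminin chain of epithelial basement membranes, rose by 0.72 ± 0.10 (adjusted p = 0.00446) in Lip-C mice and by 0.56 ± 0.10 (adjusted p = 0.0043) in Lip-O mice.

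Averaged over liposomes, bulbectomy raised 16 of 51 members and lowered Emilin2 (33.3%, where 32.7% of all genes changed). By direction, 31.4% of members rose, against 19.2% of all genes, and 1.96% fell, against 13.5%. Averaged over operations, Lip-C raised Col4a2, Col8a1 and Nid1 and lowered Dcn and Has2 (9.8%, where 1.6% of all genes changed, 0.77% higher and 0.829% lower). For Has2 the Lip-C average of -0.707 (adjusted p = 0.0249) combined opposite signs, -1.56 in sham mice and 0.142 in OBX mice. Its call was lost without Lip-C OBX replicate 2, Lip-C sham replicates 2 or 3, Lip-O OBX replicate 2 or Lip-O sham replicate 2 (at most 0.0659). An unadjusted p under 0.05 was reached by 34 members (66.7%) for bulbectomy, against 43.7% of all genes. The smallest p-values among the bulbectomy rises were those of Nid1 (0.59 ± 0.08, adjusted p = 0.000648) and Thbs1 (0.60 ± 0.09, adjusted p = 0.00108), and the largest rise was that of Fbln1, which encodes the matrix glycoprotein fibulin-1 (0.85 ± 0.13, adjusted p = 0.00113). No fibrillar collagen passed in that average, where their differences of opposite sign were combined: Col1a1 stood at 0.76 ± 0.43 (adjusted p = 0.196). The count of 17 was 32 without Lip-C OBX replicate 3 (62.7%, against 34.3% of all genes) and 27 without Lip-O OBX replicate 3 (52.9%, against 32.8%). The Lip-C count of 5 was 7 without Lip-C OBX replicate 3 (13.7%, against 1.2% of all genes) and 0 to 3 without any other array.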

How the data were processed

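Gene expression in microdissected mouse olfactory epithelium was measured from total RNA, as biotinylated cRNA, on 12 microarrays in 4 groups of 3. The deposited values are linear probe set intensities, which the authors scaled so that a 2% trimmed mean equals 500 on each array, as the values themselves show. The sources used here do not name the summary algorithm, and no per-probe precision is given, so the number of arrays limits the precision. Levels are therefore relative to the rest of each array.

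Of 45101 probe sets, 64 were controls, 34945 named 1 gene, 932 several and 9160 none in the platform annotation, and only those naming 1 gene were used; 34741 of them matched RefSeq by gene identifier. Signals were taken as log2(signal + 16). Probe sets brighter than the 40th percentile of signals on 3 or more arrays were kept (28986), and each gene was represented by the kept probe set of highest mean (13628 genes). One limma model (version 3.58.1, R 4.3.3, lmFit and eBayes) held all group means (8 residual and 2.55 prior degrees of freedom). The model gave 7 comparisons: Lip-C over Lip-O in OBX and in sham mice, OBX over sham in Lip-C and in Lip-O mice, their interaction, and both averages. P-values were adjusted by Benjamini-Hochberg over all genes, and an adjusted p under 0.05 was a call. The median standard error of a difference between 2 groups was 0.124. The script was tested on simulated data. Identical values on any pair of arrays made up at most 0.315% of probe sets.

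Alternatives were other pseudocounts, no filter, quantile normalization, median centring, averaging all probe sets of a gene, no variance moderation, only the groups compared, the replicate number as a block (shared by all groups), and leaving out each array. Under these, calls were counted for members and over all genes, and calls on other lists come from the main fit alone. Replicate numbers were taken to pair Lip-O OBX with Lip-O sham arrays. There, the deviations of all 3 same-numbered pairs from their group means correlated over 0.1 (0.134 to 0.312). The titles do not say what a number marks. The main model held no pairing, so its p-values for bulbectomy in Lip-O mice leave this pairing out. Results with the replicate number as a block are given beside them. Members and gene lists were chosen with earlier results of these data known. Values on every array are given for 16 fixed members and for members called in a comparison, at most the 5 with the smallest p in each; of other lists, counts and up to 4 genes with the smallest p. Promoter windows came from RefSeq annotation of GRCm38.p6.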

Additional observations from a re-analysis of the deposited data

How the results depend on the processing

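Of 46 calls on members whose values are given on every array, 21 held without each of the 12 arrays and 20 under every other setting. Those members include the ones with the smallest p in each comparison, so these shares do not stand for all calls. Among the remaining calls on members, only those of Lamc1, Nid2 and Timp2 for OBX averaged over both liposomes held without each of the 12 arrays. Counts of members called moved more. For Lip-C in sham mice (2 called) the count was 4 with a pseudocount of 64 and with the replicate number as a block, 1 without the filter, with median centring, without variance moderation or with only the groups compared, and 1 to 4 leaving out single arrays. Of all genes, 0.308% (no filter) to 2.92% (pseudocount of 64) were called under these settings, and 0.125% to 2.33% leaving out single arrays. For Lip-C in OBX mice (0 called) it was 0 to 1 leaving out single arrays, where 0.0514% to 0.565% of all genes were called. For OBX in Lip-O mice (10 called) it was 6 without the filter, 5 without variance moderation and 5 to 12 leaving out single arrays. The share of members was 11.5% without the filter, against 11.2% of all genes, and 9.8% without variance moderation, against 17.9%. For OBX in Lip-C mice (28 called) it was 15 without the filter, 10 without variance moderation and 5 to 38 leaving out single arrays. There the share of members was 28.8% without the filter, against 9.48% of all genes. Without variance moderation it was 19.6% against 15.2%, where the main fit gave 54.9% against 19.1%. For the interaction (0 called) it was 0 to 1 leaving out single arrays, where 0.0% to 1.17% of all genes were called. For Lip-C averaged over both operations (5 called) it was 2 without the filter or with the mean of probe sets, 3 with quantile normalization, 0 without variance moderation and 0 to 7 leaving out single arrays. Of all genes, 0.588% were called without the filter, 1.69% with the mean of probe sets, 1.52% with quantile normalization and 0.932% without variance moderation. For OBX averaged over both liposomes (17 called) it was 13 to 32 leaving out single arrays, where 25.4% to 34.3% of all genes were called. Leaving out both OBX replicates 3, chosen after seeing the data, gave 5 for Lip-C in sham mice, 1 for Lip-C in OBX mice and 39 for OBX averaged. The shares were 9.8% against 2.14% of all genes, 1.96% against 0.286% and 76.5% against 34.8%, in that order. The cause of these changes was not tested.

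Signs turned in a few cases. The median over members for OBX in Lip-O mice ran from -0.016, without Lip-O OBX replicate 2, to 0.224, and was -0.0153 without Lip-O sham replicate 1. The median for Lip-C averaged ran from -0.0266, without Lip-O sham replicate 1, to 0.0904, and was -0.0201 lacking the Lip-O OBX array numbered 3 and -0.0121 lacking the Lip-C OBX array numbered 1. For Lip-C in OBX mice, leaving out single arrays gave Col1a1 differences of -0.0604 to 0.9 and Col1a2 differences of -0.017 to 0.475, the negative ones without Lip-O OBX replicate 3. For OBX in Lip-O mice Col1a1 ran from -1.07 to 0.0257, the positive value arising without that array and without both OBX replicates 3. The cause was not tested.

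Titles number the replicates 1 to 3 in every group. Deviations of same-numbered arrays from their group means correlated at -0.0301 to 0.325, over 0.1 in 10 of 18 pairs of arrays, and an array correlated best with its own number in 24 of 36 cases and in every other group for 3 of 12 arrays. Between Lip-O OBX and Lip-O sham arrays all 3 pairs lay over 0.1 (0.312, 0.277 and 0.134), and those were taken as paired. The main fit did not use that pairing, whereas the fit with the replicate number as a block did. In each other pair of groups at least 1 pair lay under 0.1, and no pairing was taken there. The cutoff of 0.1 was a choice: Lip-C sham with Lip-O sham arrays gave 0.325, 0.117 and 0.0986. Whether arrays of those groups were paired was therefore not settled. With the replicate number as a block, the counts of members called were 0 and 4 for Lip-C in OBX and sham mice, 31 and 11 for bulbectomy in mice given Lip-C and Lip-O, 0 for the interaction, 4 for Lip-C averaged and 25 for OBX averaged. For bulbectomy the shares were 60.8% against 21.9% of all genes in Lip-C mice and 21.6% against 21.8% in Lip-O mice. For OBX averaged they were 49.0% against 35.0%, and for Lip-C in sham mice 7.84% against 2.39%. In Lip-O mice Col4a1 (0.56) and Has2 (-0.53) then passed after bulbectomy and Lamc1 did not, with the other calls and non-calls on members there unchanged. In the other comparisons the block gained 17 calls on members, and 5 were not made: Dcn and Nid1 for Lip-C averaged, Dcn and Thbs2 for OBX in Lip-C mice and Col14a1 for OBX averaged. With 3 arrays a group and bulk tissue with bone and cartilage, small differences, members of low signal such as Has2 on Lip-C sham arrays, and the cells behind a difference could not be settled.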
